A study of Mus musculus with 6 samples.

Results

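Expression of the histone genes was measured by RNA-seq in muscle stem cells (MuSCs, which lie along the fibres of skeletal muscle and repair them) that were sorted from control and Taf4asKO mice and not cultured. Members were the protein-coding rows of the table whose symbol belongs to the histone clusters (Hist1h to Hist4h) or to the single-copy histone genes (H1f, H2af, H3f and the newer cluster names) and whose mean over the 6 libraries was at least 5. Of 22081 genes, 60 had such a symbol and 48 were members. The members were 37 replication-dependent genes, named by cluster, and 11 variant genes. Another 8 protein-coding rows lay below the mean and 4 were pseudogenes or antisense RNAs. Hist1h2ae, with a mean of 5.0, lay just inside this limit, and Hist1h2ak and Hist2h2ab, each with a mean of 4.67, lay just outside.

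Both groups had 3 libraries from adult C57BL/6 mice, made from total RNA of FAC-sorted MuSCs. Taf4asKO mice carry floxed Taf4 alleles (Taf4 was formerly Taf4a and encodes a TFIID subunit) and a tamoxifen-inducible Cre recombinase driven by the Pax7 locus, so the deletion was induced in Pax7-expressing cells. The labels call the controls wild type. The study's reporting form describes its controls as littermates with the floxed alleles, with or without the Cre, and names tamoxifen for Taf4asKO only; which of these control genotypes each library has is not given. The study states that its quantitative analyses used at least 3 biological replicates, but nothing in the labels ties a library to an animal. The p-values therefore measure the spread between these libraries, which may in part be technical. Values are normalized counts, that is, reads per gene divided by a size factor per library, and their sum per library lay between 12338676 and 14551732. The MuSC markers Pax7 (10363 to 13007), Myf5 and Itga7 were abundant in all 6 libraries. Normalized counts of Taf4 itself were 613, 534 and 478 in the controls, listed here and below from replicate 1 to 3, against 631, 565 and 574 in Taf4asKO. The gene total did not fall (log2 fold change 0.13 ± 0.12 SE, adjusted p = 0.524), and since the floxed region is a pair of exons, the gene total does not check the deletion. The study examined the deletion by genomic PCR, by RT-qPCR of Taf4a and by western blot of the TAF4A protein, which are not analysed here. The groups are taken from their labels, and the direction of each change below refers to the libraries labelled Taf4asKO.

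Histones package DNA. An octamer of H2A, H2B, H3 and H4 forms the nucleosome core, and a linker histone, H1, binds where DNA enters and leaves it. Replication-dependent genes lie in clusters, have few or no introns and are transcribed mainly in S phase, when a new set of nucleosomes is needed. Their mRNAs usually end just after a conserved stem-loop, bound by SLBP, instead of carrying a poly(A) tail. Variant histones such as H3.3, H2A.Z and H1.0 are expressed through the cell cycle, usually from genes with introns and polyadenylated mRNAs, and are deposited outside replication as well. Most adult MuSCs are quiescent, and cells that have left the cycle draw mainly on the variants. The libraries were made from total RNA, so mRNAs without a poly(A) tail could be read.

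The stem-loop is shown because it is the mark of mRNAs without a poly(A) tail and because the distance from it to the end of the gene model is used below. In GENCODE M21 transcripts (mm10), 30 of the 37 replication-dependent genes and 1 of the 11 variant genes, H2afx, held a match to the histone stem-loop consensus. The paired arms are in capitals and the loop in lower case. The commonest form was held by 14 genes, among them Hist1h1d, Hist1h1e, Hist3h2a and Hist2h3c2, and by no H4 gene:
14 H1, H2A, H2B and H3 genes: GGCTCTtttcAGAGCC
Hist1h3e and 5 others: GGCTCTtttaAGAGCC
Hist1h4d and 4 other H4 genes: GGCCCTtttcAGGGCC
Hist1h4i and Hist2h4: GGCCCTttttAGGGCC
H2afx: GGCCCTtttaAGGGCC
All 8 H4 genes with a match, and H2afx, carried the second kind of arm, and the other 22 genes carried the first. No match was found in the models of Hist1h1a, Hist1h1b, Hist1h2bc, Hist1h2bn, Hist2h2be, Hist1h3i and Hist1h4k. A missing match can also mean that the model ends before the stem-loop. Those of Hist1h2bn, Hist1h3i and Hist1h4k are only 381, 411 and 312 bases long.

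Promoters were taken from RefSeq (GRCm38.p6, from 250 bases before to 50 after the start), which matched 42 of the 48 members. Not matched were Hist1h2bc, Hist2h2be, Hist1h3a, Hist1h3f, Hist2h4 and H2afx. The CCAAT box (letters CCAAT or, on the other strand, ATTGG), the motif that the factor NF-Y binds, was present in 27 of 32 replication-dependent promoters (84.4%) and 7 of 10 variant promoters (70.0%), against 37.4% of all 32851 promoters of this length. The octamer (ATGCAAAT or ATTTGCAT, the motif of POU factors) was found in 4 of 4 replication-dependent H2A and 5 of 7 H2B promoters and in no H1, H3 or H4 promoter of that kind, against 1.7% of all promoters. TATAAA, searched on the gene's strand, was in 16 of 32 replication-dependent promoters, in 1 of 10 variant promoters and in 8.3% of all. H4 promoters had the CCAAT box least often, in 3 of 8. These matches describe the sequence and were not tested as binding sites.

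The windows below show the bases just before the start for the linker histone genes that share a layout, and for 3 of the 5 members that were higher in Taf4asKO. Of the other 2, Hist1h2bc was not matched, and Hist2h3c2 is not shown because its only CCAAT box began 14 bases after the start. Capitals mark CCAAT boxes, TATAAA and the octamer:
Hist1h1a, chr13:23763568-23763667, plus strand: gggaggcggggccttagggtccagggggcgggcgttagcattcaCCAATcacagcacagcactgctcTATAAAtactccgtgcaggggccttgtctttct
Hist1h1b, chr13:21780626-21780725, minus strand: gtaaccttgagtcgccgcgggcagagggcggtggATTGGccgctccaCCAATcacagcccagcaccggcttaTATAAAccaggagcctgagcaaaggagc
Hist1h1c, chr13:23738707-23738806, plus strand: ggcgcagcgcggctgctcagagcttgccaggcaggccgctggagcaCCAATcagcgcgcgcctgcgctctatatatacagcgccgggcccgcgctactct
Hist1h1d, chr13:23554932-23555031, plus strand: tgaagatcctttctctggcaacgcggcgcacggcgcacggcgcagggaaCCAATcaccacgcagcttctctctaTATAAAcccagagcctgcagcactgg
Hist1h1e, chr13:23622559-23622658, minus strand: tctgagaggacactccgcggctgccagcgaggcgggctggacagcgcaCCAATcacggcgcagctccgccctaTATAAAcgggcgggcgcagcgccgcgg
Hist3h2a, chr11:58954565-58954684, plus strand: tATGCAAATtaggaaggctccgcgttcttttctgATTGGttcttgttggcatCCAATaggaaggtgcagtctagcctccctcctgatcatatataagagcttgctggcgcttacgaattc
Hist1h4i, chr13:22041363-22041462, minus strand: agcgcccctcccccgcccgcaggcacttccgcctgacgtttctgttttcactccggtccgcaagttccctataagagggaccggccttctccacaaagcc
H3f3b, chr11:116024505-116024754, minus strand: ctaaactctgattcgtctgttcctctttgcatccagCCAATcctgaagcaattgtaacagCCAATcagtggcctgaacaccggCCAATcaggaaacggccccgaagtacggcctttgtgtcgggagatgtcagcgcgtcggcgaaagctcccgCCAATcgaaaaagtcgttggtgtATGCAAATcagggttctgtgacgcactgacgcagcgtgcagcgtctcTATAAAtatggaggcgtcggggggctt
The 5 H1 promoters shown each carried a CCAAT box whose first base lay 51 to 56 bases before the start, and in 4 of them TATAAA followed 23 to 25 bases further on. Hist1h4i had no CCAAT box in its promoter, and H3f3b had 4, between 97 and 214 bases before the start.

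Among the 48 members, 9 passed the threshold (limma adjusted p under 0.05 and a fold of at least 1.3), or 18.8%, where 12.6% of all 18562 genes tested did. Of the 37 replication-dependent genes, 4 were lower in Taf4asKO (Hist1h1b, Hist1h3e, Hist1h1d and Hist1h1e) and 4 were higher (Hist2h3c2, Hist1h2bc, Hist1h4i and Hist3h2a). Over all genes 6.71% were lower and 5.93% higher. Of the 8 replication-dependent genes, 5 passed without control replicate 2 and 3, 2 and 3 without Taf4asKO replicates 1, 2 and 3. Over all genes, 2347 passed with all libraries, 3121 without control replicate 2, and 1295, 962 and 960 without those Taf4asKO replicates. Of the 11 variant genes 1, H3f3b, was higher and none was lower. The median log2 fold change was -0.35 over the replication-dependent genes, 0.03 over the variants and 0.00 over all genes tested. The groups did not overlap in 14 of 37 replication-dependent genes (9 lower and 5 higher) and 2 of 11 variants, H3f3b and H2afz, against 33.0% of all genes tested. The plot of all members by class shows the spread.

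**Figure D1:**
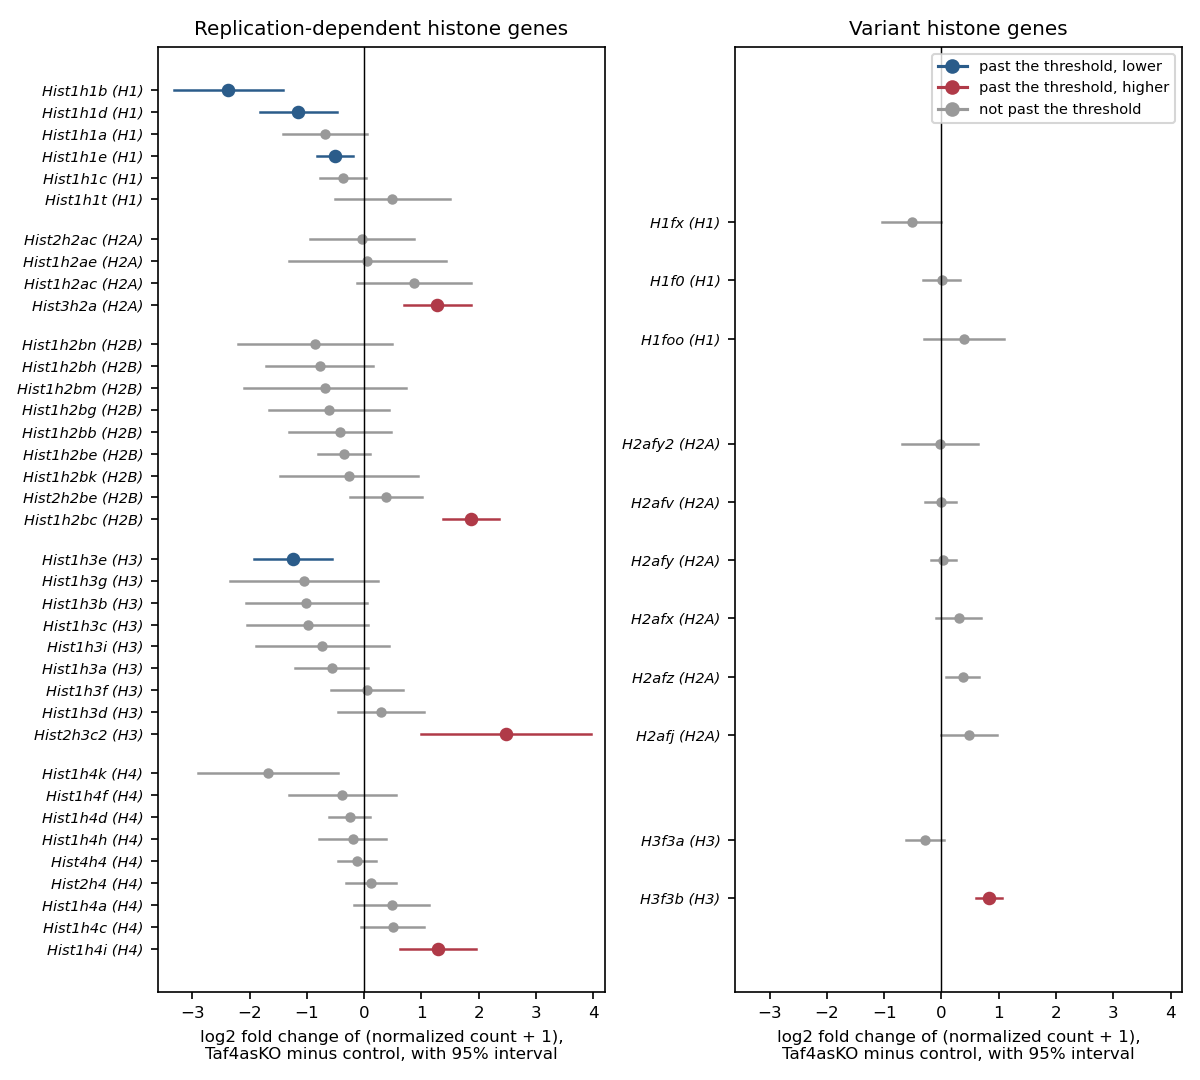
Log2 fold change of the normalized count + 1 (x axis, Taf4asKO minus control) with its 95% interval from limma, for the 37 replication-dependent genes (left) and the 11 variant genes (right), grouped by class on the y axis. Coloured points passed the threshold, blue for lower and red for higher: 3 of the 4 lower genes are H1 genes, while the higher ones fall 1 each in H2A, H2B, H3 and H4 on the left and in H3 (H3f3b) on the right.

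Linker histones held 3 of the 4 falls. Hist1h1b (H1.5; ENSMUSG00000058773, a single exon at chr13:21779883-21780625) had 72, 172 and 55 normalized counts in control, against 11, 24 and 16 in Taf4asKO. The groups were separate, with control replicate 2 far above the other controls. It was 5.18-fold lower, a log2 fold change of -2.37 ± 0.43 (SE, n = 3 per group, adjusted p = 0.00673), and it passed the threshold in all 16 fits described under the processing. Hist1h1d (H1.3; ENSMUSG00000052565, chr13:23553262-23560686) had 161, 225 and 89 in control and 80, 61 and 59 in Taf4asKO. The lowest control was close to the highest Taf4asKO library, and the log2 fold change was -1.15 ± 0.30 (adjusted p = 0.0344). Hist1h1e (H1.4; ENSMUSG00000051627, chr13:23620629-23622558) had the highest level of the replication-dependent genes, per kilobase too, with 853, 1142 and 851 in control and 734, 588 and 659 in Taf4asKO. Its fall was smaller, and the groups did not overlap, with a log2 fold change of -0.51 ± 0.14 (adjusted p = 0.0383). Exons of other genes, Hist1h2be among them, cover 25.7% of the exon bases of Hist1h1e, and reads there were left out by the authors' counting. Hist1h1d lost its call without control replicate 1 (adjusted p = 0.0812), without control replicate 2 (0.0641) and without any 1 of the Taf4asKO libraries (0.0630 to 0.125). Hist1h1e lost it without control replicate 2 (the log2 fold change was then -0.37, under the limit), without any 1 Taf4asKO library (0.0573 to 0.166) and with adjustment for exon length and GC content (0.0689).

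The other replication-dependent H1 genes did not pass. Hist1h1a (H1.1) had 44, 95 and 43 in control and 31, 42 and 32 in Taf4asKO (log2 fold change -0.69 ± 0.33, adjusted p = 0.199). Its groups did not overlap, though by 1 normalized count. Hist1h1c (H1.2) had 547, 720 and 474 against 560, 390 and 394 (-0.37 ± 0.18, adjusted p = 0.213), with overlap between the groups. Hist1h1t, the testis linker histone, had at most 12 in any library. The summed level of the 6 genes was 1682, 2359 and 1521 in control and 1428, 1115 and 1166 in Taf4asKO, a ratio of means of 0.667, or 0.772 without control replicate 2.

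None of the 3 linker histone variants passed the threshold in limma, with 0 of 3 at an unadjusted p under 0.05 and 0 by limma-voom. H1f0 (H1.0, the linker histone of cells that have left the cycle) had 1385, 2040 and 1731 in control and 1687, 1513 and 1922 in Taf4asKO, with full overlap and a log2 fold change of 0.00 ± 0.15 (95% interval -0.32 to 0.33, adjusted p = 0.997). H1fx had 93, 123 and 75 against 63, 57 and 80 (-0.52 ± 0.23, adjusted p = 0.174). H1foo, the oocyte linker histone, had 17 to 36 and overlapped. Per kilobase of exon, H1f0 made up 41.2% ± 4.36 (SD, n = 3) of all linker histone signal in control and 51.0% ± 3.86 in Taf4asKO, and Hist1h1b 6.22% ± 2.56 and 1.44% ± 0.679. Both shares were separate between groups, and they are given as a description. These shares depend on the gene models, and that of Hist1h1d, with 7425 exon bases, starts well before the RefSeq start, which lowers its value per kilobase.

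Among the core histones, the changes past the threshold went both ways. In H2A, Hist3h2a (ENSMUSG00000078851, a single exon at chr11:58954685-58956830, away from the main clusters) had 31, 32 and 21 in control and 77, 72 and 57 in Taf4asKO. All Taf4asKO libraries were above all controls, with a log2 fold change of 1.28 ± 0.26 (2.42-fold higher, adjusted p = 0.0116). Trim17 and Gm44313 overlap 33.0% of its exon bases, and Trim17 on the same strand had 13, 11 and 8 against 25, 22 and 19 (adjusted p = 0.0845). Reads over the exon bases shared with Trim17 were left out by the authors' counting. Whether other reads from Trim17 transcripts contribute to the value of Hist3h2a was not tested. Without Taf4asKO replicate 1 or 2 the adjusted p was 0.0583 or 0.0659. The other 3 H2A genes were low, and Hist1h2ac had 5, 7 and 3 against 9, 12 and 8 (0.87 ± 0.45, adjusted p = 0.232).

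In H2B, Hist1h2bc (ENSMUSG00000018102, chr13:23684199-23692908) had 78, 87 and 51 in control and 305, 231 and 242 in Taf4asKO. The groups were far apart, and the change of 3.63-fold (log2 1.86 ± 0.22, adjusted p = 0.000847) passed in all 16 fits. Its gene model has 2 exons, whereas 35 of the 37 replication-dependent genes have a single-exon model as their longest transcript. The 9 H2B genes summed to 269, 360 and 243 in control and 471, 407 and 421 in Taf4asKO. Of the other 8 H2B genes, 7 had a log2 fold change below 0, from -0.86 (Hist1h2bn, 20, 41 and 7 against 14, 12 and 5) to -0.26 (Hist1h2bk), and none passed the threshold. Hist1h2be (69, 83 and 79 against 52, 68 and 61) and Hist1h2bh did not overlap between groups and did not pass (adjusted p = 0.285 and 0.256). Hist2h2be, on chromosome 3, had 31, 35 and 46 against 38, 45 and 66 (0.38 ± 0.28, adjusted p = 0.408).

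In the replication-dependent H3 genes, which encode H3.1 and H3.2, Hist1h3e (ENSMUSG00000069273, chr13:23561534-23562369) had 49, 77 and 50 in control and 31, 25 and 17 in Taf4asKO. Every Taf4asKO library was below every control (log2 fold change -1.24 ± 0.31, adjusted p = 0.0260). Hist2h3c2 (ENSMUSG00000081058, chr3:96238108-96239127) went the other way from a low level, with 0, 5 and 3 in control and 18, 10 and 19 in Taf4asKO (2.48 ± 0.67, adjusted p = 0.0364). Both have near-identical relatives, and only 40.6% and 37.4% of their 75-base windows were unique among annotated transcripts, and reads shared between H3 genes were removed as multi-mapping, so both values are uncertain. Hist1h3e lost its call without control replicate 2 (adjusted p = 0.0502), Taf4asKO replicate 2 (0.0837) or 3 (0.111), and with adjustment for exon length and GC content (0.0586). Hist2h3c2 kept it in 9 of 15 fits, losing it without any 1 library other than control replicate 2 (0.0507 to 0.138) and with a pseudocount of 0.1 (0.0939). The size of its change rests on these low counts, with a log2 fold change of 1.72 without control replicate 1 and 3.70 with the smaller pseudocount. Of the other 7 H3 genes 5 had a log2 fold change below 0 (Hist1h3b, Hist1h3c and Hist1h3g close to -1), with none past the threshold. The 9 genes summed to 179, 261 and 165 in control and 169, 141 and 124 in Taf4asKO.

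In H4, Hist1h4i (ENSMUSG00000060639, chr13:22040636-22041362) had 12, 12 and 13 in control and 30, 37 and 28 in Taf4asKO. The groups were separate with little spread (1.28 ± 0.30, adjusted p = 0.0199), and without any 1 Taf4asKO library the adjusted p was 0.0638 to 0.106. Hist1h4k had 6, 15 and 6 against 3, 1 and 2, the lowest fold change of the class, and missed the threshold (-1.68 ± 0.55, adjusted p = 0.0722). The abundant members overlapped. Hist1h4d had 234, 334 and 235 against 238, 218 and 208, and Hist4h4 had 132, 131 and 143 against 131, 127 and 115. The summed level of the 9 H4 genes was 609, 779 and 626 in control and 699, 668 and 613 in Taf4asKO, a ratio of 0.983.

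**Figure D2:**
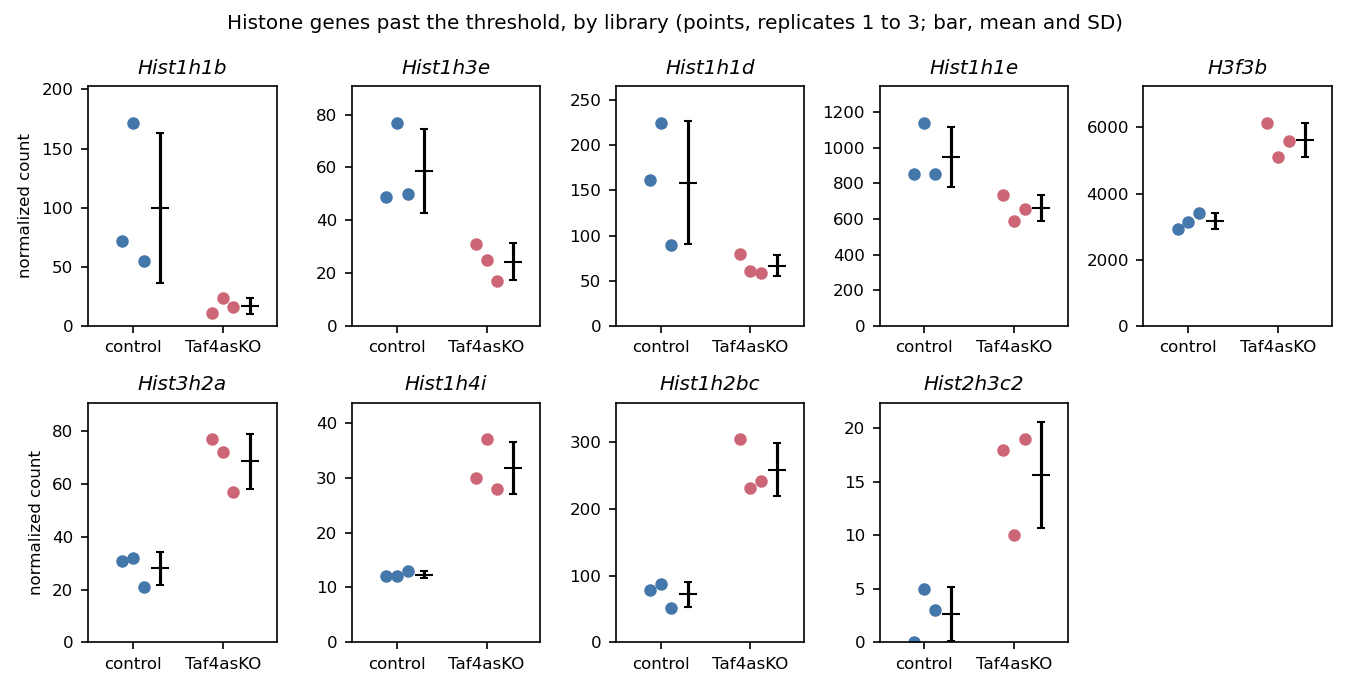
Normalized count (y axis, from 0) in each library for the 9 histone genes past the threshold, control in blue and Taf4asKO in red, points in the order of replicates 1 to 3 and black bars the mean with SD. The groups do not overlap in any panel, and control replicate 2 is the highest control in each of the 4 lower genes.

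H3.3 is encoded by H3f3a and H3f3b, which specify the same protein from different mRNAs. H3f3b (ENSMUSG00000016559, chr11:116021912-116027962) had 2930, 3143 and 3409 in control and 6145, 5116 and 5578 in Taf4asKO, and was the most abundant histone gene per kilobase. The groups were far apart, a rise of 1.77-fold (log2 0.83 ± 0.10, 95% interval 0.60 to 1.06, adjusted p = 0.00114), and it passed in all 16 fits. H3f3a had 228, 196 and 210 against 201, 160 and 161, with overlap (-0.28 ± 0.15, 95% interval -0.62 to 0.05, adjusted p = 0.240). Exons on the opposite strand, among them those of H3f3aos, cover 22.8% of its exon bases, and whether strand was used in counting is not stated. Per kilobase, H3f3b was 94.6% ± 0.693 (SD) of the H3.3 signal in control and 97.4% ± 0.157 in Taf4asKO. H3.3 made up 81.1%, 75.7% and 84.7% of the H3 signal per kilobase in the controls, against 91.1%, 91.3% and 92.7% in Taf4asKO. These shares did not overlap, rest mainly on H3f3b and are a description. Multi-mapping reads were removed, which lowers the near-identical replication-dependent H3 genes more. Unique 75-base windows made up 21.7% (Hist1h3i) to 77.9% (Hist1h3d) of their models, against 96.6% in H3f3b and 76.9% in H3f3a. The shares are therefore not the composition of H3 mRNA.

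None of the 6 H2A variants passed the threshold in limma, with 1 of 6 at an unadjusted p under 0.05 and 0 by limma-voom. H2afz, encoding H2A.Z.1, came closest with 316, 313 and 260 in control and 410, 377 and 360 in Taf4asKO. Its groups did not overlap, and the log2 fold change of 0.37 ± 0.13 (95% interval 0.09 to 0.65, adjusted p = 0.0847) lay just under the fold required. The adjusted p was 0.0470 in the fit with the replicate block, where the fold was the same and still short of the limit. Its paralogue H2afv (H2A.Z.2) had 344, 375 and 303 against 331, 354 and 325 (-0.01 ± 0.12, adjusted p = 0.962). H2afx, whose product is phosphorylated at DNA breaks, had 115, 146 and 100 against 156, 149 and 136 (0.30 ± 0.18, adjusted p = 0.296). H2afj had 49, 71 and 56 against 90, 70 and 85 (0.48 ± 0.22, adjusted p = 0.178). The macroH2A genes stayed close: H2afy had 541, 555 and 545 against 573, 560 and 543 (0.03 ± 0.10, 95% interval -0.19 to 0.25, adjusted p = 0.876), and H2afy2 had 19 to 29 in all libraries.

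The sums over each kind of gene were compared as a description, since a sum over chosen members is not tested. The replication-dependent genes summed to 2801, 3825 and 2601 in control, against 2890, 2427 and 2421 in Taf4asKO. The groups overlapped, and the ratio of means was 0.839, or 0.955 without control replicate 2. With the 4 genes that rose taken out, a choice that uses their values, the other 33 summed to 2680, 3689 and 2513 against 2460, 2077 and 2075, which did not overlap. The variants summed to 6047, 7008 and 6738 in control and 9714, 8412 and 9237 in Taf4asKO, a ratio of 1.38 that rests on H3f3b: the 6 H2A variants summed to 1290 to 1489 and 1474 to 1587. In bulk RNA, a change in the share of cells and a change in RNA per cell cannot be told apart.

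**Figure D3:**
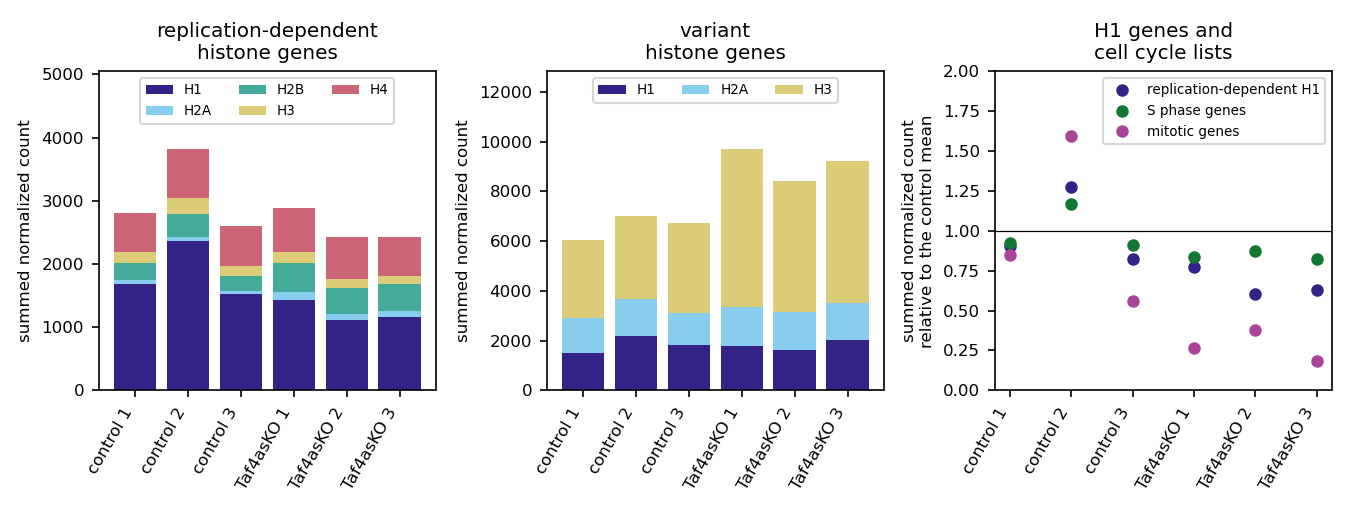
Summed normalized count per library (y axis) of the replication-dependent (left) and variant (middle) histone genes, stacked by class, and (right) the sums of the replication-dependent H1 genes, 39 S phase genes and 14 mitotic genes relative to their control means. Control replicate 2 is the highest in the left and right panels, and the H3 segment of the variants is larger in all 3 Taf4asKO libraries.

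Proliferation genes were read beside the histone genes. The lists here and in the next paragraphs were drawn up with earlier results of these data known. Of 39 S phase genes 9 were lower and 1 was higher (median log2 fold change -0.31); with the replicate block 11 were lower and 2 higher. Over all genes 6.71% were lower and 5.93% higher without the block, and 8.98% and 9.09% with it. Among those past the threshold, the falls with the largest change were Ccna2 (-1.56), Gins1 (-1.45), Uhrf1 (-1.37), E2f1 (-1.28) and Mcm2 (-1.07). Gins1, at 28, 12 and 20 against 6, 7 and 6, passed in only 8 of 15 fits, and the other 4 in 13 or 14 of 16. Of 14 mitotic genes 6 were lower (10 with the replicate block) and none higher (0.19 for Aurka was the highest log2 fold change), with a median of -1.38. Of the mitotic genes past the threshold, those that fell most were Mki67 (1087, 2232 and 727 in control against 250, 427 and 189), Cdk1, Cenpf, Top2a and Cdc20. Ccnb1 had a lower log2 fold change still (-2.21) from 10, 27 and 7 against 4, 4 and 0, and passed with the replicate block (adjusted p = 0.0163) but not without it (0.0759). The mitotic sum was 2222, 4191 and 1468 in control and 691, 1001 and 488 in Taf4asKO, and its highest library, control replicate 2, was also highest for the replication-dependent sum. The S phase count was 1 to 3, and the mitotic count 1 to 4, without any 1 Taf4asKO library, and the S phase count was 6 without control replicate 1. Over all genes 960 to 1295 passed without 1 Taf4asKO library and 1707 without control replicate 1, against 2347 with all. Without control replicate 2, 5 replication-dependent genes passed, 1 lower (Hist1h1b) and the same 4 higher ones. The part that the number of cycling cells has in the histone values was not tested.

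Markers of other cell types were read beside these values, each list against the 12.6% of all genes that passed. The 5 Schwann cell markers summed to 1178, 2890 and 2183 in control and 3480, 4266 and 4074 in Taf4asKO, with 4 of 5 higher, Sox10 and Mbp among them. The 4 of 8 leukocyte markers found in the table summed to 434 to 547 and 667 to 926, a sum that rests on Lyz2 (94, 357 and 320 against 465, 729 and 483, adjusted p = 0.0699). The other 3 had log2 fold changes below 0, and Cd74 was lower (12, 8 and 9 against 1, 2 and 1). All 6 endothelial markers lay above 0 (sums of 189 to 470 and 479 to 805) and none passed in limma, with 3 of 6 at an unadjusted p under 0.05 and 0 by limma-voom. Of the 9 fibro-adipogenic markers, Col3a1 and Dpt were lower and are the ones behind the lower sums (55617 to 81921 in control and 33917 to 56305 in Taf4asKO, overlapping), while the other 7 lay above 0 without passing, with a median of 0.77 over the list. None of the 6 myofibre markers passed in limma (0 of 6 at an unadjusted p under 0.05 and 0 by limma-voom), and their sums overlapped (1211 to 3688 and 2097 to 2658). The 9 MuSC markers summed to 41667 to 44234 and 43021 to 45383, but 5 of them passed. Myf5 (2261, 1888 and 2351 against 1294, 1147 and 1153), Itga7 and Cdh15 were lower, and Vcam1 (3092, 3157 and 3046 against 4772, 5395 and 5401) and Sdc4 were higher. With the replicate block, 5 fibro-adipogenic markers, 2 endothelial markers and 1 leukocyte marker were higher as well, where 9.09% of all genes were higher in that fit. Per the study's methods, the sort removed SCA1+, CD45+ and CD31+ cells and then took Integrin-a7+ or GFP+ cells. No marker in the table was at 0 in every library of a group. The part of these cells in the histone values, including that of H3f3b, was not tested.

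Genes that process, carry and load histones were counted by role, beside the 12.6% of all genes that passed. Of 15 genes of histone mRNA 3' end processing and the histone locus body, 1 was higher, Cstf2 (462, 482 and 421 against 664, 648 and 659), a subunit of the cleavage factor, and the median was 0.07. Slbp (346, 319 and 303 against 361, 300 and 274) and Npat, the activator of histone gene transcription, did not pass (adjusted p = 0.824 and 0.543). Of 13 replication-coupled H3-H4 chaperone genes, 4 were lower and none higher: Mms22l (41, 51 and 54 against 19, 25 and 18), Mcm2, Chaf1a (147, 172 and 151 against 82, 98 and 90), the large subunit of chromatin assembly factor 1, and the importin Ipo4 (1505, 1710 and 1490 against 1099, 1000 and 1036). Median log2 fold change over the list was -0.15. Mcm2 is also counted among the S phase genes above.

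None of the 6 H3.3 chaperone genes (Hira, Cabin1, Ubn1, Ubn2, Daxx and Atrx) passed in either direction, with 1 of 6 at an unadjusted p under 0.05, 0 by limma-voom and log2 fold changes from -0.27 to 0.24. Of 16 genes of H2A-H2B chaperones and variant exchange, 3 were lower and 1 higher. The falls were Ncl (-0.54), Nap1l1 (-0.47) and Npm1 (-0.38), and the rise was Anp32e, which removes H2A.Z from chromatin (798, 857 and 755 against 1062, 1065 and 1084, log2 0.42). Anp32e passed in 10 of 16 fits and lost its call with exon length and GC adjustment, without control replicate 3 and without any 1 Taf4asKO library. Nap1l1 and Npm1 passed in 12 of 16 fits, losing the call without control replicate 2 and without any 1 Taf4asKO library, and Ncl lost it without Taf4asKO replicate 2. Of 6 genes of the centromeric H3 variant and its loading, 2 were lower and none higher. Hjurp, the chaperone that loads the variant, had 1454, 1751 and 1554 against 961, 1102 and 1025 (log2 fold change -0.62). Cenpa itself had 30, 56 and 19 against 21, 30 and 21 (adjusted p = 0.531). Over all 56 genes of these lists 9 were lower and 2 higher, or 19.6%, and the median was -0.09. Without Taf4asKO replicates 1, 2 and 3 in turn, 4, 5 and 3 of these genes passed, where 1295, 962 and 960 of all genes did. Of the NF-Y subunit genes, Nfya had an adjusted p of 0.0495 but a log2 fold change of 0.34, under the fold limit, and Nfyb and Nfyc had adjusted p = 0.862 and 0.194.

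Replication-dependent genes with a stem-loop were split by how far the gene model runs past it. Of 16 genes whose model runs more than 200 bases past the stem-loop, 3 were lower and 3 higher, with a median log2 fold change of -0.04. Of these calls only Hist1h3e stayed without Taf4asKO replicate 1, none without replicate 2 and only Hist3h2a without replicate 3. Over all genes 1295, 962 and 960 passed in those fits, against 2347 with all libraries. None of the 14 genes whose model ends within 200 bases passed, with 0 of 14 at an unadjusted p under 0.05, 0 by limma-voom and a median of -0.41. Of all genes 12.6% passed. The limit was chosen after the values were seen, and the level moves with it: the median of the mean normalized count was 57.3 in the first set and 13.0 in the second. Which of length and level goes with the calls was not tested. Hist1h4i, Hist2h3c2 and Hist3h2a ran 330, 377 and 1643 bases past the stem-loop, and Hist1h2bc had none in its model. Hist4h4 and Hist1h2ac, which did not pass, ran 2445 and 2010 bases past it. Which ends the reads came from cannot be read from a total per gene.

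**Figure D4:**
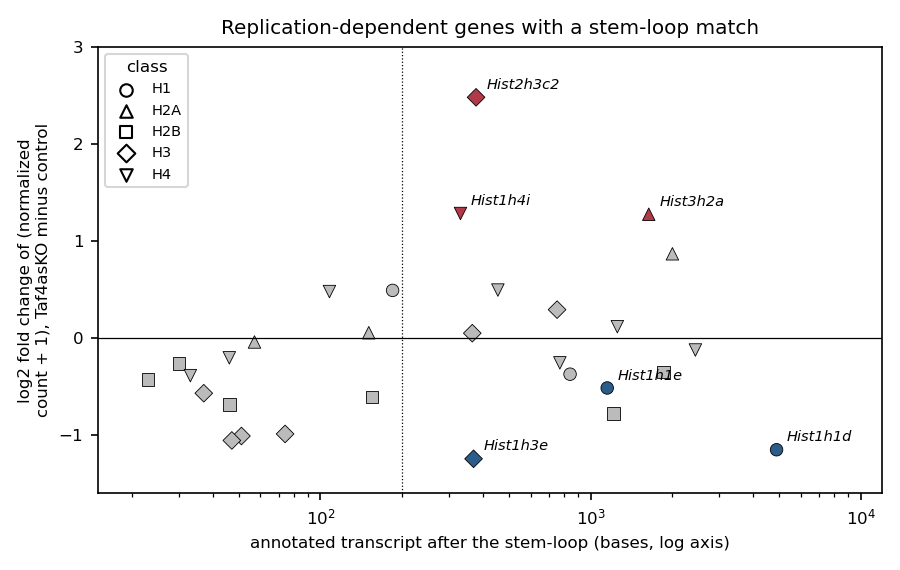
Log2 fold change (y axis, Taf4asKO minus control) against the annotated length after the stem-loop (x axis, bases, log scale) for the 30 replication-dependent genes with a match, marked by class, with red and blue for higher and lower past the threshold and grey for the rest. All 6 coloured genes lie to the right of the dotted line at 200 bases, and 11 of the 14 genes to its left lie below 0. The calls are from the fit with all libraries, and none of the 6 passed without Taf4asKO replicate 2.

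Position and copy number were compared in the same way, beside the 12.6% of all genes that passed (6.71% lower and 5.93% higher). On chromosome 13 the Hist1 cluster had 31 members, 4 lower and 2 higher (median -0.42). The 4 Hist2 genes on chromosome 3 had 1 higher and a median of 0.25. The 27 replication-dependent genes whose promoter held a CCAAT box had 4 lower and 2 higher (median -0.42) and the 5 without it 1 higher (median -0.20). The 4 lower genes are the same in both counts, and only Hist1h1b of them passed without control replicate 2. Without Taf4asKO replicate 2 only Hist1h1b and Hist1h2bc passed among all replication-dependent genes. Over all genes 3121 and 962 passed in these 2 fits, against 2347 with all libraries. Uniqueness also varied, with a median of 71.6% of 75-base windows unique in replication-dependent genes and 94.8% in variants. Among the 41 members with at least 50% of windows unique, 3 were lower and 4 higher.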

How the data were processed

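RNA of 3 control and 3 Taf4asKO samples was sequenced by the authors from stranded total RNA libraries. Per the study's methods and the submitters' processing notes, reads were trimmed (Trimmomatic 0.39) and aligned to mm10 (STAR 2.6.0c), reads mapping to several places were removed, and reads over exons were counted without those overlapping several genes (featureCounts 1.6.0). Removal of multi-mapping reads lowers the values of near-identical histone genes. The deposited values are a score: counts that the authors divided by DESeq2 (1.14.1) size factors and rounded to whole numbers. All value columns belonged to a sample (0 did not). Size factors estimated from the spacing of the values gave 10.6 M to 17.6 M reads per library, whose number limits the precision of low genes. In each group the libraries differed by more than sampling noise (chi-square over its degrees of freedom, 4.12 to 36.6).

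Genes with a mean of at least 5 were tested with limma 3.58.1 (R 4.3.3, intensity trend, two-sided, no covariate) on log2(value + 1), which understates changes of low genes. The threshold was a Benjamini-Hochberg adjusted p under 0.05 over all 18562 genes and a fold of at least 1.3. On simulated data with groups of 3, independent genes and a fixed dispersion of 0.02, 164 of 200 genes changed by 1.5 (log2) were recovered with 7 false calls. The simulation holds no deviations shared between genes, so it does not give the error of the calls here. Together with 15 alternatives (other scaling, filters, pseudocount, limma-voom, exon length and GC adjustment, a replicate block, and leaving out each library) this made 16 fits. The other filter was a mean of at least 20 and the other pseudocount 0.1. Deviations of equally numbered libraries correlated at 0.235, 0.126 and 0.150, and those of unequal numbers at -0.149 to 0.0141. The deviations are centred within each group of 3, and the labels name no shared litter or day. Such weak correlations cannot show that equal numbers, taken from the titles, are pairs. The fit with equal numbers as a block is an alternative, and values are from the fit without it unless the block is named. By the rule for named genes, any member could be named, with full statistics for the members past the threshold and for 8 variants, and at most 5 genes past the threshold per list. Some genes counted in the lists are not reported here by name. Genes named outside that rule were chosen after their values were seen. Members and lists were chosen with earlier results of these data known. Gene models were GENCODE M21, in which 48 of 48 members were found and 46 had the table's position. Figures were drawn with matplotlib 3.10.9.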

Additional observations from a re-analysis of the deposited data

How the results depend on the processing

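Leaving out each library in turn gave 960 to 3121 genes past the threshold (2347 with all libraries), 2 to 7 replication-dependent genes (8 with all), 3 to 10 histone supply genes, 1 to 11 S phase genes and 1 to 7 mitotic genes, and the variant count was 1 in each. Dropping a library also leaves fewer samples. With the replicate block, 3355 of all genes passed and 10 mitotic genes (10 also with exon length and GC adjustment added), and 8 replication-dependent genes and 1 variant passed as before. The block changed no other call among the 17 genes followed, and its fold changes equalled those without it. Under the remaining settings, 6 to 8 replication-dependent genes and 1 variant passed. The ratio of the summed replication-dependent counts was 0.779 to 0.955 over the leave-one-out sets and 0.824 to 0.846 under other scaling, and that of the variants 1.33 to 1.44 and 1.35 to 1.38. Of 254 values of the 17 genes, 223 kept direction and call, 25 lost the call and 6 changed sign, all 6 for genes not past the threshold. With upper-quartile scaling the log2 fold changes of H2afy and H1f0 were -0.0032 and -0.032. Leaving out libraries, H2afv ranged from -0.094 to 0.059 and H1f0 from -0.145 to 0.134. The causes of these changes were not tested. The median of the mean normalized count was 22.0 for the replication-dependent genes and 192.7 for the variants.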
